A study of Brassica rapa subsp. pekinensis with 2 samples.

Results

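The transcripts described here were those of the enzymes that make, modify and break down chlorophyll and carotenoids in Chinese cabbage (Brassica rapa ssp. pekinensis). They were chosen by their description in the expression table. A reference transcript was a member when its description held any of 13 terms: protochlorophyllide, magnesium-chelatase, magnesium chelatase, glutamyl-tRNA reductase, chlorophyllase, chlorophyllide, porphyrin, phytoene, carotene, lycopene, zeaxanthin, violaxanthin or carotenoid. This gave 60 of 34213 reference transcripts, or 29 enzymes and associated proteins, of which 15 had more than 1 gene copy. The terms use no measured value, but they were chosen with earlier results of these data known. The study compared the whole transcriptome of anthers (Ant) with that of root, stem and leaf (Mix), with 1 library of ribosomal RNA-depleted total RNA each. Both came from the double haploid line FT, a line made fully homozygous through microspore culture. Ant pooled anthers of several stages, taken from buds of several sizes on flowering plants that had been kept at 4 °C for 20 days. Mix pooled the organs of whole seedlings with 4 true leaves. The sample labels give the cold treatment for both libraries, whereas the methods state it for the anther plants only. Organ, plant age and, if only the anther plants were vernalized, cold treatment therefore cannot be told apart. With 1 library per group there was no replicate, and no difference below has a test or an error between plants.

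Chlorophyll and heme share a route in the plastid that begins with glutamyl-tRNA and 5-aminolevulinate and runs through a series of porphyrins to protoporphyrin IX. Insertion of magnesium by magnesium chelatase commits the porphyrin to chlorophyll, and insertion of iron commits it to heme. In flowering plants the reduction of protochlorophyllide needs light, so that chlorophyll is made in green, lit tissue. Carotenoids arise from geranylgeranyl diphosphate by way of phytoene and lycopene. Lycopene is then cyclized to the branch with lutein or to the branch with β-carotene, zeaxanthin and violaxanthin. Carotenoids protect the photosynthetic apparatus, colour flowers, and are cleaved to abscisic acid, strigolactones and scents.

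Levels are given as FPKM, fragments per kilobase of transcript and scaled to the library total, in the order Ant and Mix. The difference between the libraries is log2((FPKM Ant + 1)/(FPKM Mix + 1)), called the log2 ratio, which understates the change of low transcripts. Folds are ratios of FPKM without the added 1. A transcript was compared when its FPKM was at least 1 in either library, and the cutoff was a log2 ratio above 2 or below −2. Where a library held no more than 6 estimated counts of a transcript, the fold is a lower bound computed against that floor.

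The table held 216371346 estimated counts in Ant and 190816341 in Mix. A single window of 500 kb on chromosome A06 took 56.2% of the counts in Mix and 2.07% in Ant, and it held 0 members. Over the 17562 transcripts that reached 1 FPKM in Ant and also in Mix, the log2 ratio had a median of 0.54, so a log2 ratio is also given, where named as centred, after subtraction of this shift. The tissue labels were compared with marker transcripts. All 13 compared anther-specific and oleosin-B transcripts were above the cutoff, with a summed level of 5572 FPKM in Ant and 0.253 in Mix. Transcripts described as pollen-specific were mixed. Of 25 compared, 14 were above the cutoff and 1 below, with sums of 2826 FPKM in Ant and 95.4 in Mix. The 4 compared floral homeotic transcripts and the 1 compared tapetal transcript were above the cutoff. The 24 chlorophyll a-b binding proteins of the light-harvesting antenna summed to 21.3 FPKM in Ant and 10374 in Mix, with 0 of 23 compared transcripts above the cutoff and 22 below it. The 10 Casparian strip proteins of the root were all listed at 0 in Ant and summed to 23.5 FPKM in Mix. In such pooled tissue, fewer cells of a type and less RNA per cell cannot be told apart. The part of green cell content in the differences below was not tested.

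Of the 60 members, 43 were compared, and most had lower levels in the anther. A log2 ratio below −2 was found for 16 of them, a ratio above 2 for 3, and 24 lay between. Among all 19909 reference transcripts compared, 9.48% were below −2 and 21.2% above 2. The median log2 ratio of the members was −1.64, against 0.62 over all reference transcripts compared. After centring, 22 members were below −2 and 2 above 2, where 14.7% and 15.2% of all transcripts were, and the median was −2.18. The summed level of all 60 members was 247 FPKM in Ant and 733 in Mix. Other transcripts whose description places the protein in the chloroplast had a median log2 ratio of −0.73 over 1229 compared, with 318 below and 95 above the cutoff. The median of the members thus lay below that of the chloroplast proteins and above that of the antenna proteins, −6.74. These medians are descriptions of 1 pair of libraries.

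**Figure D1:**
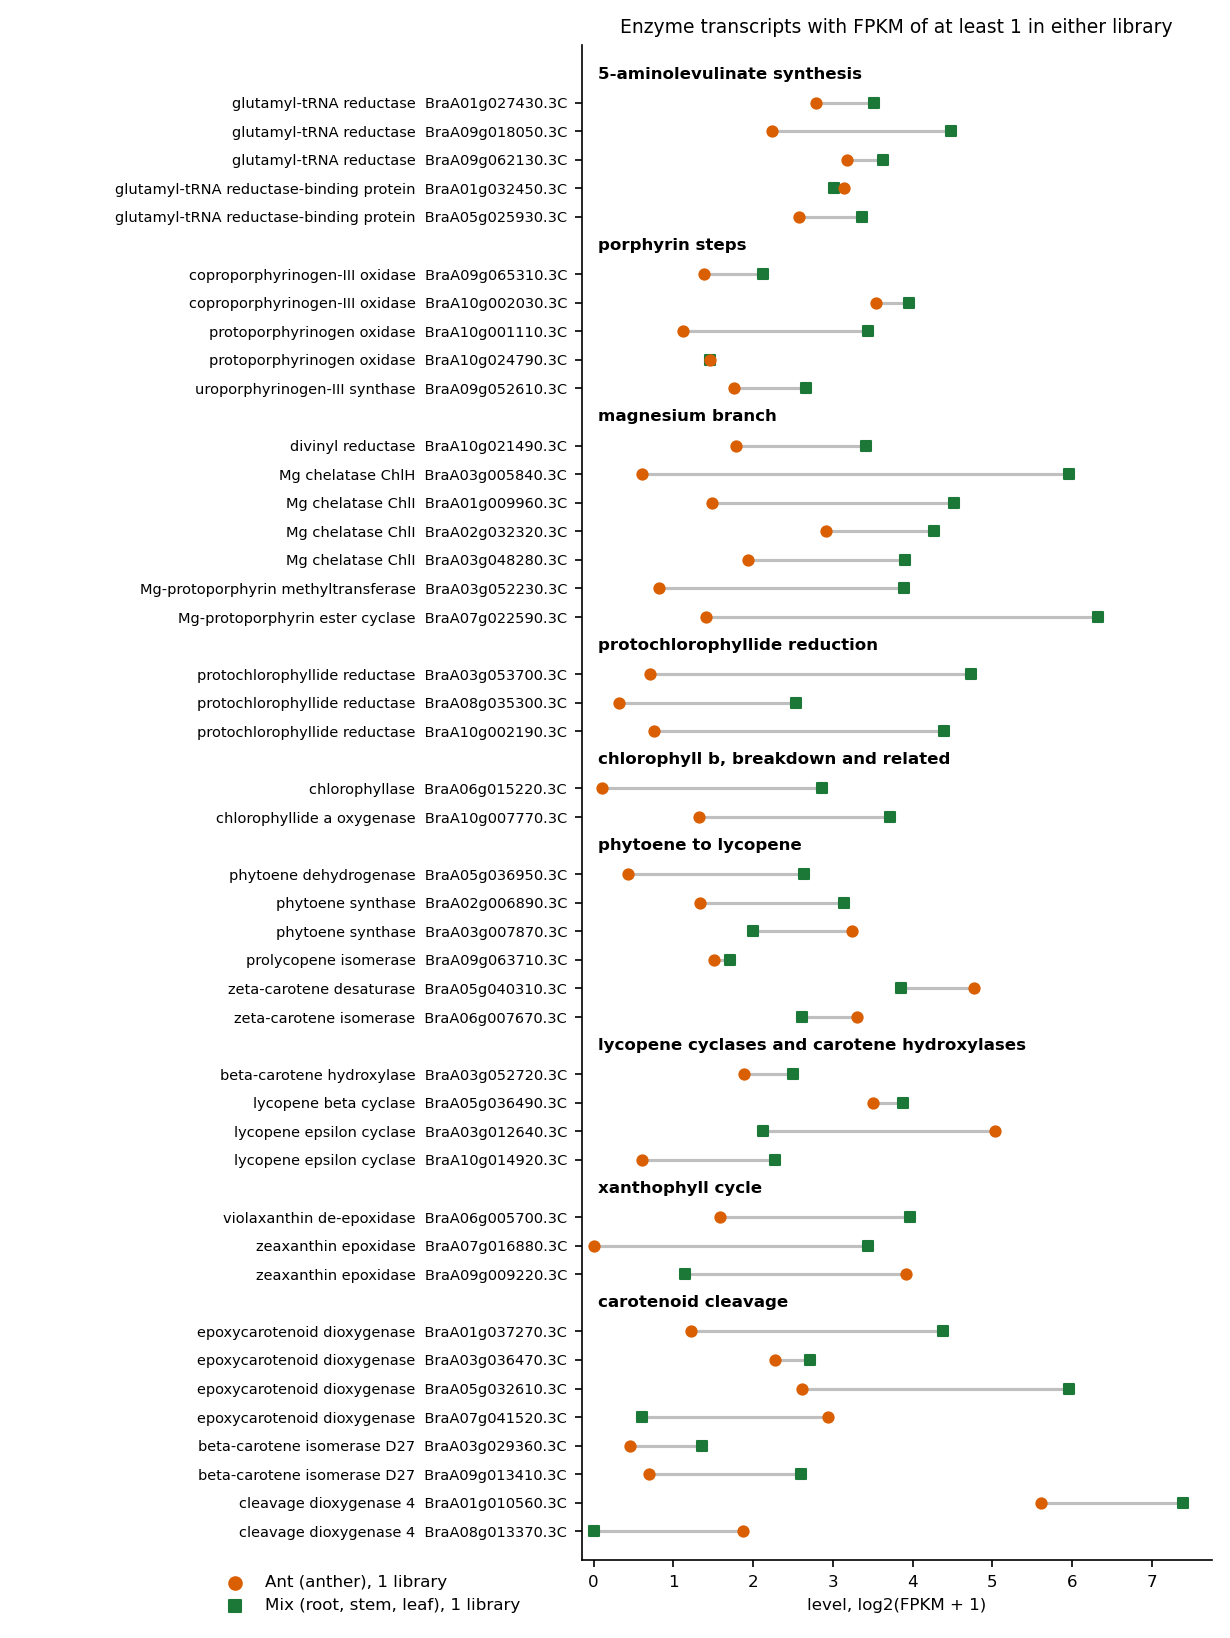
Level of each compared enzyme transcript as log2(FPKM + 1), with a circle for the Ant library and a square for the Mix library, joined by a line and grouped by pathway step. In the magnesium branch and in protochlorophyllide reduction every square lies right of its circle, whereas the carotenoid steps hold lines of both directions.

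The remaining 17 members stayed under 1 FPKM in both libraries, with a highest value of 0.756. They were 5 chlorophyll and 12 carotenoid transcripts, 9 of the latter cleavage dioxygenases or isomerases of the D27 type. In Ant 6 of them were listed at 0, and in Mix 4 were. Members were not clustered on 1 chromosome: chromosome A09 held 14, A03 10, A10 9 and A01 8, with the other 19 on A02 and A05 to A08. Their median length was 1398 nucleotides in 5 exons, against 1038 nucleotides in 4 exons for all reference transcripts. By the annotation 56 of the 60 proteins belong to the chloroplast.

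The chlorophyll side comprised 27 members and the carotenoid side 33. Of 22 compared chlorophyll members, 0 were above the cutoff and 11 (50%) below it, with a median log2 ratio of −2.09. Of 21 compared carotenoid members, 3 (14.3%) were above and 5 (23.8%) below, with a median of −0.62. Over all reference transcripts compared, 21.2% were above and 9.48% below. After centring the counts became 0 above and 13 below for chlorophyll, and 2 above and 9 below for carotenoids. Over all transcripts 15.2% were then above and 14.7% below. Summed levels were 68.4 and 383 FPKM for the chlorophyll side and 179 and 349 FPKM for the carotenoid side.

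**Figure D2:**
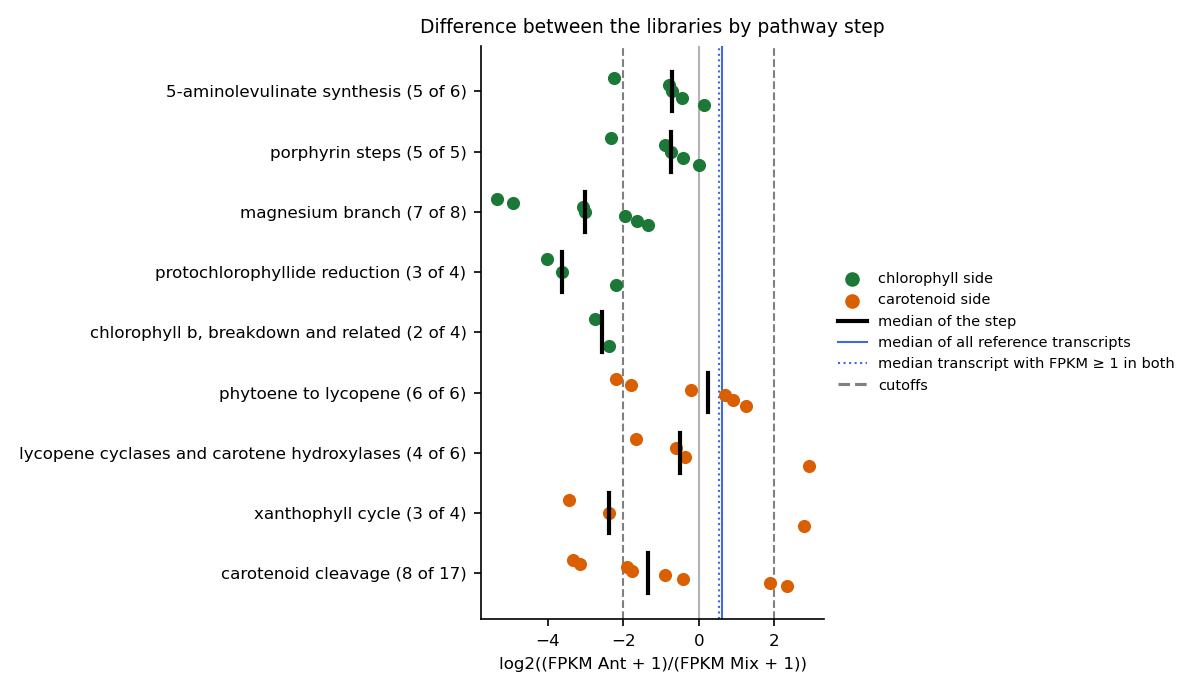
Log2 ratio of each compared member by pathway step, with the number compared of the number of members in brackets. Short vertical bars are the step medians, which lie from −3.64 for protochlorophyllide reduction to 0.24 for the steps from phytoene to lycopene. Dashed lines mark the cutoffs, and the other vertical lines mark 0 and the medians of all transcripts.

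Members at the start of tetrapyrrole synthesis were mostly lower in the anther, by modest factors. Of 5 compared transcripts of 5-aminolevulinate synthesis, 1 was below the cutoff and 0 above, with a median log2 ratio of −0.72 and summed levels of 30.5 and 59.8 FPKM. Glutamyl-tRNA reductase catalyses the first committed and rate-limiting reaction. Its copy BraA09g018050.3C, described as glutamyl-tRNA reductase 1, the form that in Arabidopsis is tied to light and green tissue, had 3.73 FPKM in Ant and 21.4 in Mix. This was 5.74-fold lower in the anther, with a log2 ratio of −2.24. The copy BraA09g062130.3C, described as glutamyl-tRNA reductase 2, the form known in Arabidopsis from non-photosynthetic tissue, had 8.03 and 11.3 FPKM, a log2 ratio of −0.45. A further copy, BraA01g027430.3C, was measured at 5.92 and 10.4 FPKM. The most abundant copy of the enzyme thus differed between the libraries, with BraA09g062130.3C at 45.4% of the summed reference level in Ant and BraA09g018050.3C at 49.3% in Mix. Glutamyl-tRNA reductase-binding protein, which in Arabidopsis holds the reductase at the membrane, had 7.84 and 7.06 FPKM for BraA01g032450.3C and 4.94 and 9.34 FPKM for BraA05g025930.3C. The first of these had a log2 ratio of 0.13 that became −0.40 after centring.

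The members in the porphyrin steps up to protoporphyrin IX, which serve heme as well as chlorophyll, showed similarly modest differences. These 5 members summed to 17.6 and 34.8 FPKM, with a median log2 ratio of −0.75 and 1 member below the cutoff. The shared route also holds enzymes that the terms did not catch, described further below, and these differed more. Of 7 compared transcripts of these, 5 were below the cutoff and 1 above, with a median of −2.92. Uroporphyrinogen-III synthase, which closes the porphyrin ring, was at 2.40 and 5.34 FPKM. Coproporphyrinogen-III oxidase was at 10.7 and 14.5 FPKM for BraA10g002030.3C and at 1.60 and 3.36 FPKM for BraA09g065310.3C. Protoporphyrinogen oxidase performs the last step shared by heme and chlorophyll. Its copy BraA10g024790.3C had 1.75 FPKM in both libraries. The reference transcript of the other copy, BraA10g001110.3C, had 1.18 and 9.87 FPKM, but an assembled isoform of the same gene had 25.7 FPKM in Ant and 2.20 in Mix. Summed over both, the gene had a log2 ratio of 1.09 where the reference transcript alone gave −2.32. This was the only compared member whose direction differed between the reference transcript and the gene.

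In the magnesium branch 4 of 7 compared transcripts were below the cutoff and 0 above, with a median log2 ratio of −3.03 and summed levels of 16.6 and 219 FPKM. ChlH, the large porphyrin-binding subunit of magnesium chelatase and a participant in plastid-to-nucleus signalling in Arabidopsis, was encoded by BraA03g005840.3C (v3.0, chromosome A03, 2557478 to 2562760, minus strand, 5 exons). It had 0.517 FPKM in Ant and 61.3 in Mix. The level was 119-fold lower in the anther, and its log2 ratio of −5.36 was the lowest of the members and the 143rd from the lowest among the 19909 transcripts compared. The ATPase subunit ChlI was less far apart. Its copy BraA01g009960.3C had 1.80 and 21.9 FPKM, a 12.1-fold difference. The copy BraA03g048280.3C had 2.83 and 14.0 FPKM, a 4.94-fold difference that left it just inside the cutoff at −1.97. The copy BraA02g032320.3C had 6.57 and 18.3 FPKM, a 2.78-fold difference. The most abundant ChlI copy was BraA02g032320.3C in Ant, with 58.6% of the summed reference level, and BraA01g009960.3C in Mix, with 40.4%, where BraA02g032320.3C held 33.8%. For the third subunit, ChlD, the reference transcript was listed at 0 in Ant and 0.435 in Mix, whereas its assembled isoform had 14.6 and 24.1 FPKM. At the level of the gene the log2 ratio of ChlD was −0.71, so that the 3 subunits of 1 enzyme ranged from −0.71 for ChlD to −5.36 for ChlH.

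Beyond the chelatase the levels stayed low in Ant. The methyltransferase BraA03g052230.3C, which acts on magnesium protoporphyrin IX, had 0.767 and 13.8 FPKM, an 18.0-fold difference. The monomethyl ester cyclase BraA07g022590.3C forms the fifth ring of chlorophyll and lies on chromosome A07 (18182824 to 18184636, plus strand, 5 exons). It had 1.65 FPKM in Ant and 79.4 in Mix, the highest level of a chlorophyll member in Mix, and was 48.1-fold lower in the anther with a log2 ratio of −4.92. Divinyl chlorophyllide reductase BraA10g021490.3C, which completes the side chain, had 2.44 and 9.71 FPKM and lay inside the cutoff at −1.64.

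Protochlorophyllide reductase, the light-dependent enzyme, had all 3 compared copies below the cutoff, and its 4 members summed to 1.65 and 50.5 FPKM. The B form BraA03g053700.3C had 0.629 and 25.7 FPKM, a 40.8-fold difference. The C form BraA10g002190.3C had 0.688 and 20.0 FPKM, a 29.1-fold difference, and the C-like form BraA08g035300.3C had 0.253 and 4.79 FPKM, an 18.9-fold difference. The A form BraA10g012360.3C, in Arabidopsis the form of dark-grown seedlings, ran the other way at a level near the limit. It had 0.0851 FPKM in Ant, or 24 estimated counts, and was listed at 0 in Mix, at least 3.88-fold higher in the anther. With the isoforms included, the enzyme summed to 2.74 and 54.2 FPKM, a log2 ratio of −3.88.

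Chlorophyllide a oxygenase makes chlorophyll b, and its transcript BraA10g007770.3C had 1.51 and 12.1 FPKM. The log2 ratio was −2.39, and −1.97 with its isoform added. Chlorophyllase removes the phytol tail. Chlorophyllase-1, BraA06g015220.3C, had 0.0801 and 6.30 FPKM, a 78.6-fold difference, whereas chlorophyllase-2, BraA09g019990.3C, had 0.499 and 0.756 FPKM and was too low to be compared. The protochlorophyllide-dependent translocon component of the 52 type, a relative of the breakdown enzyme pheophorbide a oxygenase, had a reference transcript at 0.0162 and 0.00996 FPKM but an isoform at 11.5 and 20.7 FPKM.

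The early carotenoid steps were closer to even in sum. From phytoene to lycopene all 6 members were compared, with 0 above and 1 below the cutoff, a median log2 ratio of 0.24 and summed levels of 47.3 FPKM in Ant and 36.9 in Mix. The median became −0.29 after centring. Phytoene synthase, which catalyses the first committed step of the pathway, had copies of opposite direction. BraA03g007870.3C had 8.45 FPKM in Ant and 3.01 in Mix, 2.81-fold higher in the anther. BraA02g006890.3C had 1.52 and 7.83 FPKM, 5.15-fold lower in the anther. The former held 84.7% of the enzyme's level in Ant and the latter 72.2% in Mix, and the sums of 9.97 and 10.8 FPKM were nearly equal.

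Among the desaturases and isomerases that follow, phytoene dehydrogenase BraA05g036950.3C had 0.351 and 5.22 FPKM and was 14.9-fold lower in Ant. By its description it acts just after phytoene synthase, and it was the only transcript of this stretch past the cutoff. Its annotated model has 1 exon and 1422 nucleotides, and whether it encodes the enzyme of this step was not tested. The isomerase and desaturase of the later steps were higher in Ant before centring. ζ-Carotene isomerase BraA06g007670.3C had 8.91 and 5.12 FPKM, with a log2 ratio of 0.69 that became 0.16 after centring and −0.07 when the totals left out the A06 window. ζ-Carotene desaturase BraA05g040310.3C had 26.2 and 13.4 FPKM, 1.95-fold higher in Ant, with log2 ratios of 0.91 and 0.37 before and after centring. Prolycopene isomerase BraA09g063710.3C, which yields the all-trans lycopene used by the cyclases, was near parity at 1.84 and 2.28 FPKM.

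At the branch point the copies of lycopene ε-cyclase differed in direction. Lycopene ε-cyclase directs lycopene to lutein. Its copy BraA03g012640.3C (chromosome A03, 5427689 to 5430279, 10 exons) had 31.8 FPKM in Ant and 3.35 in Mix, 9.49-fold higher, and its log2 ratio of 2.91 stayed past the cutoff at 2.38 after centring. The ε-cyclase-like copy BraA10g014920.3C went the other way with 0.527 and 3.83 FPKM, a 7.28-fold difference. The first copy thus held 98.4% of the enzyme's level in Ant and 46.7% in Mix. Lycopene β-cyclase BraA05g036490.3C, which opens the branch to β-carotene and is represented by 1 member, had 10.3 and 13.7 FPKM and a log2 ratio of −0.38. Over all copies and isoforms the ε-cyclase was at 32.4 FPKM in Ant, above the β-cyclase, and at 7.19 FPKM in Mix, below it. β-Carotene hydroxylase makes zeaxanthin. Its copy BraA03g052720.3C had 2.70 and 4.67 FPKM, while the assembled isoform of BraA01g016430.3C had 4.65 and 1.24 FPKM and made that gene the main copy in Ant. The copy BraA10g010930.3C had 83 estimated counts in Ant and 0 in Mix, 0.433 FPKM in Ant, at least 13.7-fold higher.

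In the xanthophyll cycle, which interconverts zeaxanthin and violaxanthin in response to light, copies again differed. Violaxanthin de-epoxidase BraA06g005700.3C had 1.99 and 14.7 FPKM, a 7.37-fold lower level in Ant. Zeaxanthin epoxidase runs the reverse reaction and also supplies the precursor of abscisic acid. The copy BraA09g009220.3C (chromosome A09, 5279573 to 5282601, 14 exons), described as zeaxanthin epoxidase-like, had 14.1 FPKM in Ant and 1.20 in Mix, 11.7-fold higher, with log2 ratios of 2.78 and 2.24 before and after centring. The reference transcript of BraA07g016880.3C had 9.88 FPKM in Mix and was listed at 0 in Ant, while its isoform had 3.01 and 18.0 FPKM, so that the gene had a log2 ratio of −2.85. A further annotated copy, BraA07g016890.3C, covers the same stretch of chromosome A07 (14741405 to 14744688), and the division of reads between the pair is uncertain. Summed over all copies and isoforms the enzyme was at 17.1 FPKM in Ant and 29.2 in Mix.

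The cleavage enzymes were the most numerous group. Of their 17 members 8 were compared, with 1 above and 2 below the cutoff, a median log2 ratio of −1.34 and summed levels of 69.7 and 261 FPKM. The 9-cis-epoxycarotenoid dioxygenases catalyse the committed step of abscisic acid synthesis. Both NCED3 copies were higher in the seedling. BraA05g032610.3C had 5.12 FPKM in Ant and 61.1 in Mix, 11.9-fold lower in the anther, and BraA01g037270.3C had 1.33 and 19.9 FPKM, 14.9-fold lower. The NCED3-like copy BraA03g036470.3C was closer, at 3.86 and 5.55 FPKM. NCED9 is known in Arabidopsis from seeds. Its copy BraA07g041520.3C had 6.65 and 0.520 FPKM, 12.8-fold higher, although its log2 ratio of 2.33 fell to 1.79 after centring. BraA07g041520.3C was the most abundant single copy of the 8 dioxygenases in Ant with 36.5% of their summed level and held 0.596% in Mix, where BraA05g032610.3C held 70.1%. The sum over the family was 18.2 FPKM in Ant and 87.3 in Mix. The other members, NCED2, NCED5 and a NCED9-like copy, stayed under 1 FPKM.

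Carotenoid cleavage dioxygenase 4 degrades carotenoids to apocarotenoids and is known to set petal colour in Brassica. Its copy BraA01g010560.3C was the most abundant of all 60 members in both libraries, with 47.7 FPKM in Ant and 166 in Mix, a 3.48-fold difference and a log2 ratio of −1.78 that passed the cutoff at −2.32 after centring. The copy BraA08g013370.3C had 2.68 FPKM, or 1058 estimated counts, in Ant and 0 counts in Mix, at least 175-fold higher, though its log2 ratio of 1.88 stayed short of the cutoff because of the added 1 FPKM. Carotenoid cleavage dioxygenase 1-like genes formed a run of 3 neighbours on chromosome A09 (38757206 to 38777507) with reference levels of at most 0.338 FPKM. An isoform of BraA09g053420.3C had 0.0628 FPKM in Ant and 4.36 in Mix. D27 is the first enzyme of strigolactone synthesis. The 4 members described as D27 or D27-like summed to 1.03 FPKM in Ant and 7.19 in Mix. The D27-like copy BraA09g013410.3C was the main one in both at 0.615 and 5.09 FPKM.

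Reference transcripts were not always the main product of a gene. Assembled isoforms of the same gene existed for 12 members, 13 isoforms in all. They held more than 50% of the gene's FPKM for 8 members in Ant and for 5 in Mix. For 5 of the 12 the reference transcript had been too low to be compared, and all 5 passed when the isoforms were added. These were glutamyl-tRNA reductase 2-like, ChlD, the translocon component, β-carotene hydroxylase 1 on A01 and the cleavage dioxygenase 1-like gene. The glutamyl-tRNA reductase 2-like gene BraA06g008970.3C gained an isoform with 3.77 FPKM in Ant that was listed at 0 in Mix. With genes in place of transcripts, 48 of 60 were compared, 3 were above the cutoff, 15 below, and the median log2 ratio was −0.90. Over all 24106 genes compared in this way 23.9% were above the cutoff and 8.02% below, with a median of 0.80. The chlorophyll side then had 9 of 25 below and 0 above, with a median of −1.31, and the carotenoid side 6 of 23 below and 3 above, with a median of −0.62.

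**Figure D3:**
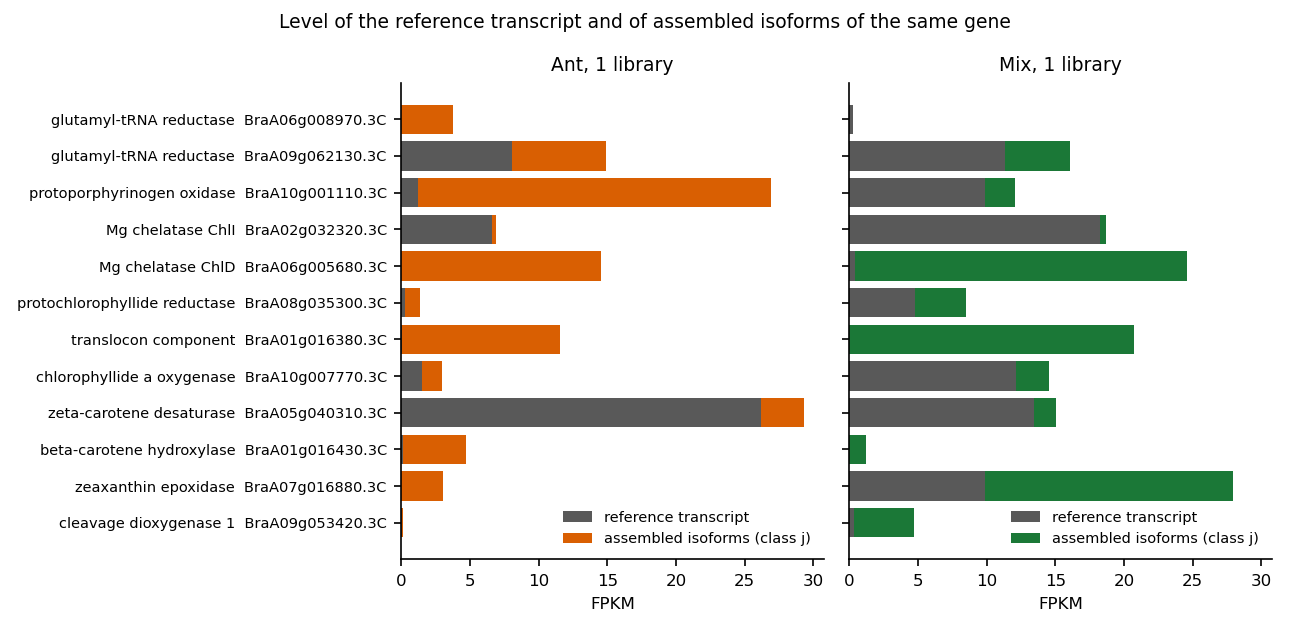
FPKM of the 12 genes with assembled isoforms, stacked as reference transcript and isoforms, in the Ant library on the left and the Mix library on the right. The isoform of protoporphyrinogen oxidase 1 fills most of its bar in Ant, at 25.7 FPKM, and little of it in Mix, at 2.20 FPKM.

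The most abundant copy of an enzyme was not always the same gene in both libraries. Among the 15 enzymes with more than 1 copy, the most abundant reference transcript was the same gene in both libraries for 5 and a different gene for 10. With isoforms added the counts were again 5 and 10, with β-carotene hydroxylase and protoporphyrinogen oxidase changing places. The share over other multi-copy genes was not computed, so these counts have no baseline. Some differences were small. Protochlorophyllide reductase copies BraA10g002190.3C and BraA03g053700.3C had reference levels of 0.688 and 0.629 FPKM in Ant. Opposite directions past the cutoff were found for zeaxanthin epoxidase and the 9-cis-epoxycarotenoid dioxygenases. Reads of near-identical copies cannot be assigned with certainty, so the split within an enzyme is less certain than its sum. Summed over copies and isoforms, levels before centring were higher in Ant for 5 of the 29 enzymes. Lycopene ε-cyclase had 32.4 and 7.19 FPKM with a log2 ratio of 2.03, and protoporphyrinogen oxidase had 28.6 and 13.8 FPKM. ζ-Carotene desaturase had 29.3 and 15.0 FPKM, ζ-carotene isomerase had 8.91 and 5.12 FPKM, and β-carotene hydroxylase had 7.87 and 5.91 FPKM.

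**Figure D4:**
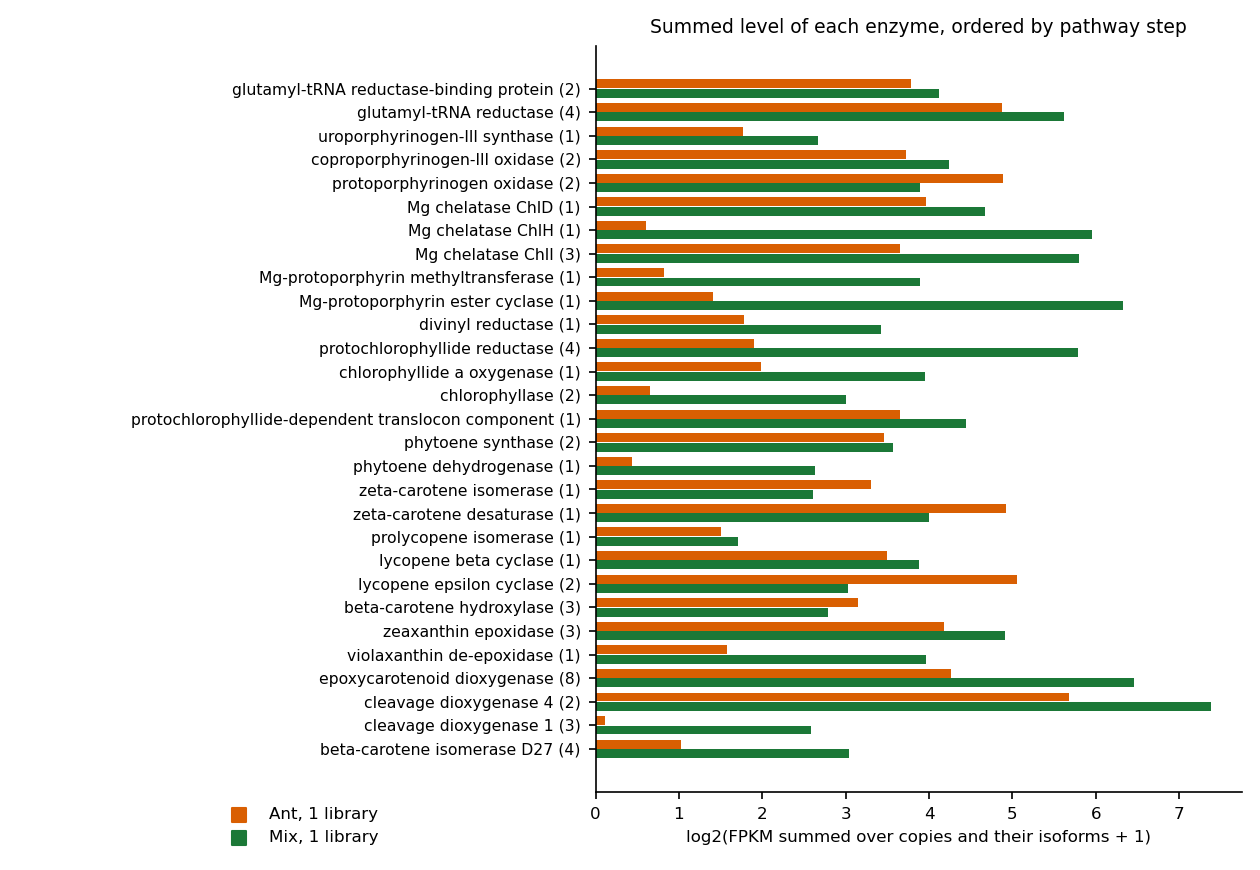
Level of each enzyme summed over its copies and their isoforms, as log2(FPKM + 1), with the number of members in brackets and 1 bar for each library. The bars of magnesium chelatase ChlH and of the ester cyclase differ most in favour of Mix, and that of lycopene ε-cyclase differs most in favour of Ant.

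The neighbouring steps of the pathways, which the description terms did not catch, were listed separately. They comprised 56 transcripts, of which 41 were compared, with a median log2 ratio of −0.66. Of these, 11 (26.8%) were above the cutoff and 10 (24.4%) below, against 21.2% and 9.48% of all reference transcripts compared. After centring 5 were above and 13 below, against 15.2% and 14.7% of all. Among them the tetrapyrrole enzymes were mostly lower in the anther. Of 7 compared, 5 were below the cutoff and 1 above. Glutamate-1-semialdehyde aminomutase, the second enzyme of 5-aminolevulinate synthesis, had 3.11 and 40.1 FPKM for BraA06g027050.3C and 1.39 and 20.8 FPKM for BraA09g007910.3C. Aminolevulinic acid dehydratase, which condenses 5-aminolevulinate to porphobilinogen, had its copies in different libraries. BraA07g034610.3C had 0.297 and 14.3 FPKM, or 6.76 and 32.8 FPKM with isoforms, and BraA10g007810.3C had 56.8 FPKM in Ant and was listed at 0 in Mix, at least 2667-fold higher. Porphobilinogen deaminase had 0.881 and 13.2 FPKM for BraA10g030600.3C. Geranylgeranyl reductase, which supplies the phytol tail, had 6.08 and 90.0 FPKM for BraA02g022330.3C and 2.07 and 76.8 FPKM for BraA07g038380.3C. Chlorophyll synthase attaches that tail, and its copies differed in direction. BraA09g043060.3C was higher in the anther at 17.4 and 2.98 FPKM, with a log2 ratio of 2.21 that became 1.86 with isoforms. BraA01g022230.3C had 0.697 and 10.5 FPKM with isoforms, a log2 ratio of −2.76. BraA02g029910.3C had 3.72 FPKM in Ant with isoforms and was listed at 0 in Mix.

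Chlorophyll breakdown genes among these neighbours were mostly higher in Ant. Of 10 compared transcripts, 6 (60%) were above the cutoff and 0 below, with a median log2 ratio of 2.37 and summed levels of 288 and 31.5 FPKM. Of all reference transcripts compared, 21.2% were above and 9.48% below. After centring the median of the group was 1.83, with 3 above the cutoff, where 15.2% of all transcripts were. This group was drawn up after values were seen and does not hold chlorophyllase, whose form chlorophyllase-1 was below the cutoff at −2.76. Chlorophyll b reductase NYC1 begins the breakdown of chlorophyll b. Its copy BraA08g006610.3C had 158 FPKM in Ant and 3.89 in Mix, 40.6-fold higher, and BraA04g008820.3C had 67.6 and 12.6 FPKM, 5.38-fold higher. The STAY-GREEN proteins remove magnesium from chlorophyll. STAY-GREEN 1 BraA03g050600.3C had 16.7 and 2.23 FPKM, and STAY-GREEN 2 BraA03g027730.3C had 16.6 FPKM in Ant and was listed at 0 in Mix. Pheophytinase, which cleaves the phytol tail in senescing leaves, had copies of both directions. BraA02g005150.3C had 10.7 and 0.424 FPKM, and BraA01g002240.3C had 0.368 and 3.97 FPKM. Isoforms mattered here too, since chlorophyll b reductase NOL had a log2 ratio of 1.29 by its reference transcript and −0.53 as a gene. Pheophorbide a oxygenase BraA01g025910.3C, which opens the ring, was at 10.8 FPKM in Ant and 21.9 in Mix as a gene. With isoforms, 12 breakdown genes were compared, with 6 above and 0 below and a median of 1.77. Over all genes compared 23.9% were above and 8.02% below.

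The heme branch was nearly even in sum. Of its 5 transcripts 1 (20%) was above the cutoff, near the 21.2% of all reference transcripts compared, and 0 were below. The median log2 ratio was −0.72, with summed levels of 64.5 and 64.6 FPKM. Ferrochelatase-2 BraA09g052590.3C, which inserts iron, had 10.2 and 29.4 FPKM, and heme oxygenase 1, which opens the heme ring, had 34.8 and 7.94 FPKM for BraA09g035910.3C and 13.6 and 23.1 FPKM for BraA07g017740.3C. Heme oxygenase 4 BraA09g018060.3C had 2.69 FPKM in Mix and was listed at 0 in Ant. The 11 compared transcripts of isoprenoid precursor synthesis had a median of 0.07, with 2 (18.2%) above and 1 (9.09%) below. These shares were near the 21.2% and 9.48% of all reference transcripts compared. Large subunit 2 of geranylgeranyl pyrophosphate synthase, BraA09g054090.3C, had 87.0 and 0.0507 FPKM, but its description does not name the chloroplast. Of the copies described as chloroplastic, BraA01g002000.3C had 10.1 and 31.0 FPKM, and BraA03g036510.3C had 3.54 FPKM in Ant and 0 in Mix. For 1-deoxy-D-xylulose-5-phosphate synthase, the entry enzyme of the plastid route, BraA03g046320.3C had 0.0369 and 11.8 FPKM. The Ant value was 6 estimated counts, at the floor. This transcript lies directly beside BraA03g046310.3C, described as the same enzyme, which had 4.14 and 34.9 FPKM as a gene.

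**Figure D5:**
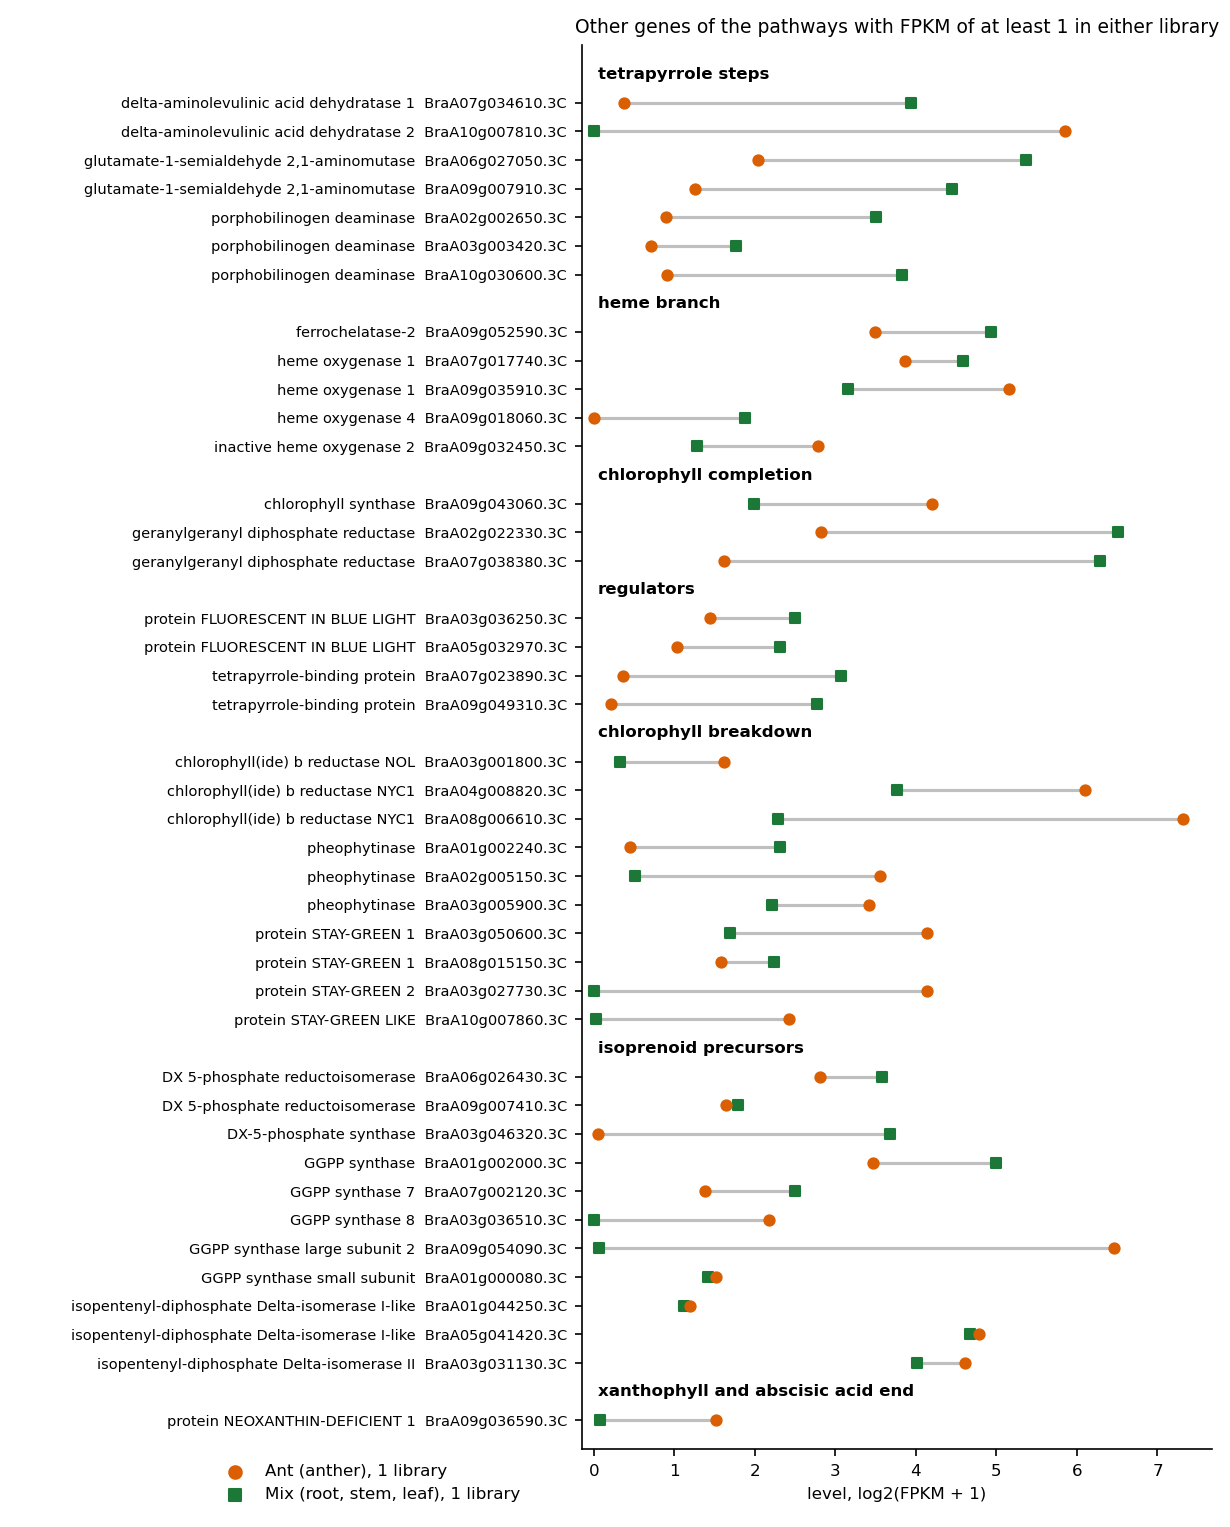
Level of the 41 compared pathway transcripts that the description terms did not catch, as log2(FPKM + 1), with a circle for Ant and a square for Mix, grouped by step. The circles of most chlorophyll breakdown transcripts lie right of the squares, and those of most tetrapyrrole transcripts lie left of them.

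Circular RNAs were detected in the same libraries through back-spliced junction reads. None of the 168 listed was hosted by a member gene. A circular RNA of ferrochelatase-2, on chromosome A09 from 38366281 to 38366599, had 0 junction reads in Ant and 1 in Mix, which is under the limit of 3 reads below which presence in a library was not read.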

How the data were processed

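Per the methods and the labels, the authors used Cutadapt for trimming, discarded ribosomal RNA reads, aligned the rest with Bowtie2 and TopHat2 (the labels also name HISAT2) to genome v3.0 of Brassica rapa, and assembled transcripts with StringTie. The deposited FPKM values, from StringTie and Ballgown or from Cuffdiff (the methods and results differ), were taken unchanged. Estimated counts, also deposited, were proportional to FPKM times transcript length (the ratio varied by 0.0190% in Ant and 0.0202% in Mix over transcripts with over 1000 counts), so they were derived from coverage. Their sums exceeded the reads the study states, hence a floor of 6 in place of 3. Floors cover counting error only. The strand setting was not given in the sources used here. For circular RNAs the authors used tophat-fusion and CIRCexplorer. The deposited junction read counts were used, and the deposited SRPBM signal was not.

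Log2 ratios were computed over the whole table (Python 3.11.15, pandas 2.3.3, numpy 2.4.6) with a pseudocount of 1 FPKM, a filter of FPKM at least 1 in either library, and a cutoff of 2, the study's without its p-value. The ratio script was tested on known fold changes simulated for well-expressed transcripts. This checks the arithmetic only, and not the low levels of many members. Reference transcripts were those of class code "=", and isoforms those of class j. With 1 library per group, no test was run. Named members were the 10 highest and 10 lowest log2 ratios, the most abundant in each step and library, copies on both sides of the cutoff, and members that reached 10 FPKM in Ant and in Mix. Other genes named were chosen after their values were seen. The members and lists were chosen with earlier results of these data known, and the step groups of the neighbouring genes were written after values were seen. Alternatives changed the pseudocount, filter, cutoff, scaling, and unit (transcript, gene or count). Coordinates are those of the deposited table. No sequences were used here.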

Additional observations from a re-analysis of the deposited data

How the results depend on the processing

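The median log2 ratio of the members was −1.64 and moved to −0.49 without the filter on low values, to −2.41 with totals that left out the A06 window and to −2.28 with both libraries scaled to the same sum. Carotenoid members below the cutoff numbered 5, and 8 with a pseudocount of 0.1 and 9 with a pseudocount of 0.01, after centring, without the window, with the same sum, and with estimated counts. Neighbouring pathway transcripts above the cutoff numbered 11, and 5 after centring, 7 without the window and 6 with the same sum. Over all reference transcripts compared, 9.48% were below −2, 14.7% after centring and 17.2% without the window. The share above 2 was 21.2%, 15.2% after centring and 16.3% without the window. Members above the cutoff numbered 3, and 5 with a cutoff of 1, for which no share over all transcripts was computed. Members below the cutoff ranged from 14 to 23 against 16, the lowest when the cleavage dioxygenases and the translocon component were left out. The highest member by log2 ratio was lycopene ε-cyclase BraA03g012640.3C at 2.91, but with a pseudocount of 0.1 it was carotenoid cleavage dioxygenase 4 BraA08g013370.3C at 4.79, and without the window zeaxanthin epoxidase BraA09g009220.3C at 2.25. Of the 29 compared members named by the rule 16 were past the cutoff, and all 16 kept their direction under the settings run, up to 9 for each. A changed pseudocount or filter cannot reverse a direction, and the rescalings moved ratios by less than the cutoff. The kept direction was therefore largely fixed in advance. Of the 16 members, 14 stayed past the cutoff throughout. The exceptions were NCED9 BraA07g041520.3C, which reached 1.74, and chlorophyllide a oxygenase, at −1.97 with its isoform. Protoporphyrinogen oxidase BraA10g001110.3C, named outside the rule, reversed from −2.32 to 1.09 at gene level. The sign changed under some setting for 3 named members that were inside the cutoff: glutamyl-tRNA reductase-binding protein BraA01g032450.3C, ζ-carotene isomerase and ζ-carotene desaturase. No paired analysis was possible because each group held 1 library, and leaving out a replicate was not possible for the same reason. The share of promoters with light-response motifs was not run, since no promoter sequence was used here. Low levels, such as protochlorophyllide reductase A at 24 counts, limit what single libraries can show.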
